A study of Mus musculus with 4 samples.

Results

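Bin1, Picalm, Cd2ap, Ptk2b, Fermt2, Celf1, Abca7 and Mef2c are the mouse counterparts of 8 human genes that lie at loci linked to late-onset Alzheimer's disease, and they are described here in the cortex of amyloid-bearing mice. The genes were chosen by name from the table of transcript counts and not by their values, though earlier results of these data were known. All 8 were found by their deposited gene symbol when upper and lower case were ignored, with 21 transcripts in all, and 2 more Mef2c transcripts without a symbol were found by their transcript identifier. They are 8 of 22919 genes and unnamed transcripts tested. Total RNA was sequenced from 2 APP/PS1 transgenic mice (APP) and 2 wild type mice (WT), all male and 12 months old, on a C57BL/6 background and with no treatment before anaesthesia and dissection. The WT mice were C57BL/6J, and the APP mice came from the B6.Cg-Tg(APPswe/PS1ΔE9)85Dbo/Mmjax line and carried the APPswe/PS1ΔE9 transgenes, which are driven by the prion protein promoter and give a mutant amyloid precursor protein together with a mutant presenilin 1. Libraries are called APP-3, APP-4, WT-1 and WT-2 after their count columns, and the question addressed is which RNAs differ between the cortices of APP and WT mice.

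The products of most of these genes act at the cell surface or in the endosome. BIN1 is a BAR-domain protein that bends membranes, and PICALM is an adaptor that brings clathrin and phosphoinositides together and sets the size of clathrin-coated pits. CD2AP is a scaffold that ties membrane receptors to actin, PTK2B (also called PYK2) is a calcium-sensitive kinase of the focal adhesion kinase family that is abundant in forebrain neurons, and FERMT2 (kindlin-2) binds integrin tails and activates them. ABCA7 is a lipid transporter of the ATP-binding cassette family. CELF1 and MEF2C act in the nucleus and on RNA: the first binds GU-rich RNA and controls splicing and decay, and the second is a transcription factor of neurons and myeloid cells.

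The 4 libraries held 28525117 to 43881196 counted reads. Cortical excitatory neuron markers were present in every library, with a summed level of 1266 and 1273 CPM (counts per 1000000 counted reads) in APP and of 1436 and 1377 CPM in WT. The microglial marker list summed to 652 and 777 CPM in APP and to 362 and 369 CPM in WT. Of its 19 genes 14 were called higher in APP, where 0.908% of all genes were, and all 19 had a log2 fold change above 0. The oligodendrocyte list summed to 1800 and 1558 CPM in APP and to 1148 and 1292 CPM in WT. Of its 12 genes 1 was called higher, and all 12 had a log2 fold change above 0. Of the remaining lists, 2 of 10 astrocyte genes and 4 of 6 hypothalamic genes were called higher, against 0.908% of all genes. Several of the hypothalamic genes called held only 0 to 2 counts in each WT library. Of the immediate-early genes, 2 of 10 (Arc and Dusp1) were called lower, where 0.0742% of all genes were. All 10 had groups that did not overlap with APP lower, against 20% of all genes. Calls numbered 0 among markers of excitatory neurons, interneurons, oligodendrocyte precursors, endothelium, striatum, thalamus and choroid plexus. In that order, 0 of 6, 1 of 5, 5 of 5, 1 of 8, 2 of 7, 3 of 4 and 0 of 3 genes had a log2 fold change above 0. The number over all genes was 11649 of 22919. In the interneuron list 1 gene, lower in APP, passed the FDR cut-off alone, where 1.32% of all genes did. The striatal list summed to 104 CPM in APP-3 and 250 CPM in APP-4, with 164 and 178 CPM in WT, and the hypothalamic list to 6.05 and 9.30 CPM in APP against 1.45 and 0.986 CPM in WT. The APP libraries differed from each other more than the WT libraries did, with a chi-square per degree of freedom over genes of 23.4 against 4.44. In whole tissue, fewer cells of a type and less RNA per cell cannot be told apart, and the part of these shifts in the values below was not tested.

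No difference between APP and WT passed the test in any of the 8 genes. With edgeR's quasi-likelihood test, 0 of 8 passed an FDR under 0.05 with a fold change of at least 1.5, where 0.982% of all genes tested were called, 0.908% higher and 0.0742% lower in APP. With counts summed by GENCODE gene the result was again 0 of 8, where 0.881% were called. At an unadjusted p under 0.05 the count was also 0 of 8, against 11.1% of all genes, and it stayed at 0 with edgeR's exact test, edgeR's likelihood ratio test and DESeq2. The log2 fold changes, APP against WT, ran from −0.17 for Mef2c to 0.16 for Cd2ap with a median of 0.05, and the median over all genes was 0.00. All 8 95% intervals included 0 and lay within a 1.5-fold change in either direction. The widest bounds were a 1.27-fold higher level for Cd2ap and a level of 0.767 of WT for Mef2c. These intervals rest on 2 mice per group and on a spread that edgeR shares across genes, and an exact permutation test of 2 against 2 libraries cannot go below p = 0.333.

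**Figure D1:**
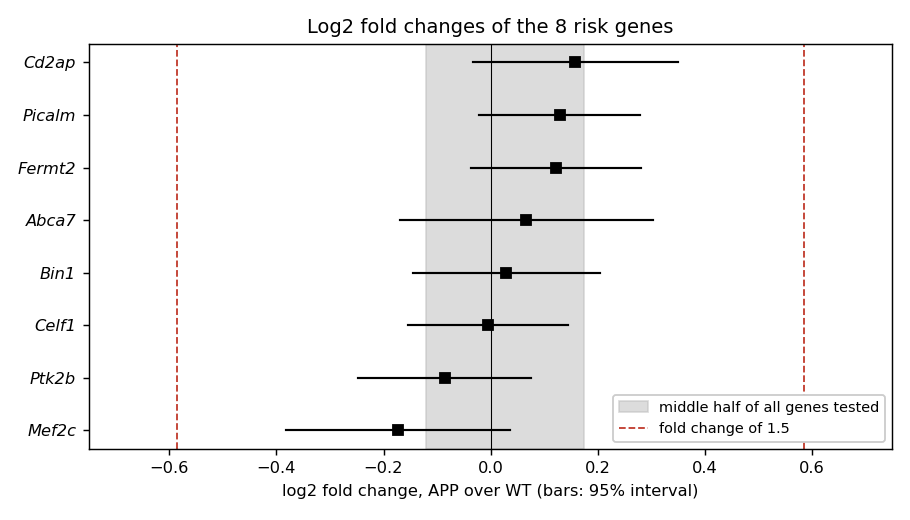
Log2 fold change of each gene, APP against WT (horizontal axis), with its 95% interval from edgeR's quasi-likelihood fit as the bar, n = 2 libraries per group. Dashed lines mark a fold change of 1.5, and the grey band runs from the lower to the upper quartile of all genes tested. All 8 intervals cross 0 and none reaches a 1.5-fold change in either direction.

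In 5 of 8 genes the APP and WT values did not overlap, 3 of them higher in APP (Picalm, Cd2ap and Fermt2) and 2 lower (Ptk2b and Mef2c). Over all genes, 41.1% had groups that did not overlap, 21.1% with APP higher and 20% with APP lower. The median absolute log2 fold change of the 8 genes was 0.10, and that of the 8105 genes within their range of expression was 0.07.

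**Figure D2:**
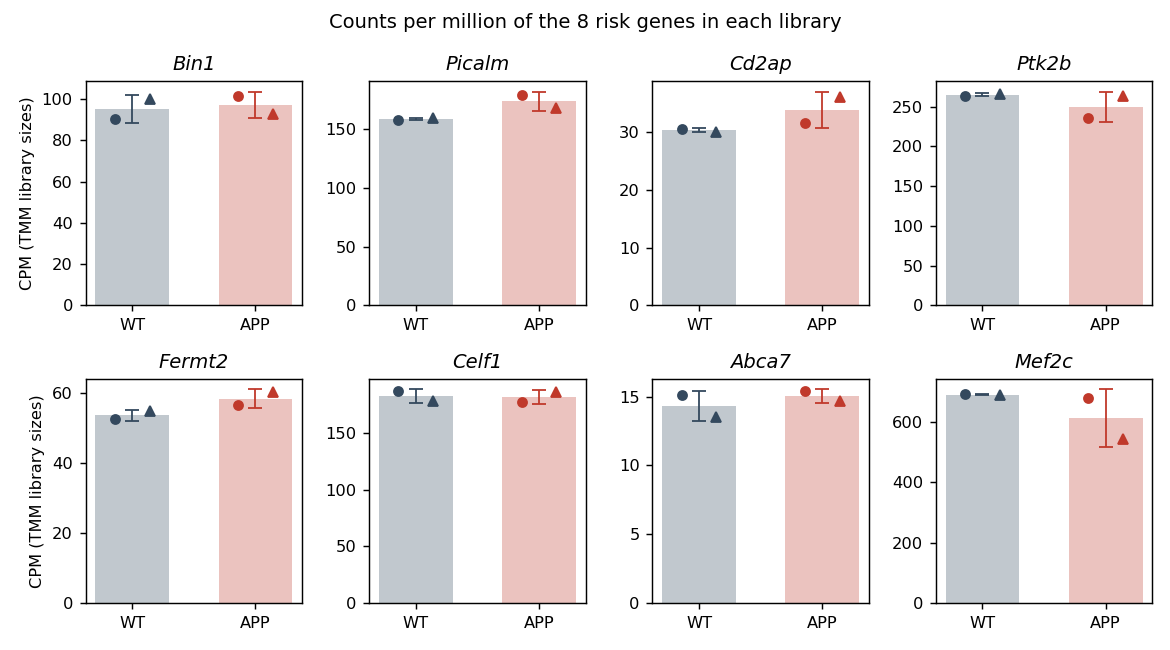
CPM of each gene (vertical axes, which start at 0) by group, with the mean as a bar, the SD as an error bar (n = 2) and 1 symbol per library. Circles stand for WT-1 and APP-3 and triangles for WT-2 and APP-4. The libraries of a gene lie close together, and the widest gap within a group is that between APP-3 (680.2 CPM) and APP-4 (545.0 CPM) for Mef2c.

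Picalm (chr7:90130516-90209100, plus strand, GRCm38) stood at 179.5 CPM in APP-3, 167.7 CPM in APP-4, 157.9 CPM in WT-1 and 159.6 CPM in WT-2. Both APP libraries lay above both WT libraries, with a log2 fold change of 0.13 ± 0.07 (SE) and an edgeR FDR of 0.539. Without APP-4 the log2 fold change was 0.18 with an FDR of 0.0496, and without APP-3 it was 0.07 with an FDR of 0.563, neither of which reached the fold cut-off. A single Picalm transcript of 15 annotated was counted, Picalm-201, so its isoforms were not resolved.

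Bin1 (chr18:32377245-32435737, plus strand) stood at 101.8 CPM in APP-3, 92.6 CPM in APP-4, 90.3 CPM in WT-1 and 100.3 CPM in WT-2. The ranges of the groups overlapped, and the log2 fold change was 0.03 ± 0.08 (SE) with an edgeR FDR of 0.946. Of the 2 Bin1 transcripts counted, of 6 annotated, Bin1-201 took 97.9 to 98.6% of the counts. This form holds 4 coding exons that Bin1-202 lacks of 93, 108, 24 and 108 bases. Bin1-202 held 45 and 60 counts in APP and 57 and 69 in WT. Bin1 shares 246 bases with a long non-coding RNA on the opposite strand, A830052D11Rik, which held 13 to 24 counts per library.

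Cd2ap (chr17:42792951-42876389, minus strand) stood at 31.6 CPM in APP-3, 36.1 CPM in APP-4, 30.6 CPM in WT-1 and 30.1 CPM in WT-2. APP-4 was the highest library, and APP-3 lay just above WT. The log2 fold change was 0.16 ± 0.09 (SE) with an edgeR FDR of 0.554, and it came to 0.06 when APP-4 was left out and to 0.25 when APP-3 was. A single Cd2ap transcript of 6 annotated was counted.

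Fermt2 (chr14:45458795-45530118, minus strand) stood at 56.7 CPM in APP-3, 60.4 CPM in APP-4, 52.7 CPM in WT-1 and 54.9 CPM in WT-2. Both APP libraries were above WT by a small margin, with a log2 fold change of 0.12 ± 0.07 (SE) and an edgeR FDR of 0.596. Fermt2-201 took 96.8 to 97.9% of the counts. The short coding fragment Fermt2-204 took 1.29 to 2.07%, and its log2 fold change of 0.52 ± 0.32 (SE) had an edgeR FDR of 0.697 and rested on 30 to 34 counts per library. The astrocyte marker list summed to 4779 and 5139 CPM in APP and to 4272 and 3905 CPM in WT, and its part in the Fermt2 values was not tested.

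Ptk2b (chr14:66153257-66281052, minus strand) stood at 236.2 CPM in APP-3, 263.3 CPM in APP-4, 263.7 CPM in WT-1 and 266.4 CPM in WT-2. APP-3 alone was low, and APP-4 lay within 1 CPM of WT-1. The log2 fold change was −0.09 ± 0.07 (SE) with an edgeR FDR of 0.747. Without APP-4 it was −0.17, and without APP-3 it was −0.01. The striatal marker sum was also lowest in APP-3, at 104 CPM, and its part in the Ptk2b value was not tested.

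Ptk2b was counted as 5 transcripts. Ptk2b-201, which encodes the full kinase, took 91.1 to 93.6% of the counts, and the retained-intron form Ptk2b-205 took 4.95 to 7.0%. Ptk2b-202, the other coding form counted, took 0.159 to 0.306%.

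Celf1 (chr2:90940397-91019497, plus strand) had the log2 fold change nearest 0 of the 8 genes. It stood at 177.7 CPM in APP-3, 186.4 CPM in APP-4, 186.8 CPM in WT-1 and 178.6 CPM in WT-2. The ranges of the groups were nearly the same, and the log2 fold change was −0.0050 ± 0.067 (SE) with an edgeR FDR of 0.991. Its counts were split between Celf1-201, with 58.2 to 59.5%, and Celf1-202, with 39.3 to 40.9%. The coding starts of these forms differ, and the 71 coding bases that only Celf1-201 holds of the pair lie at chr2:90987746-90987816 on the plus strand. They are shown in capitals, from the start codon, as the coding bases of Celf1-201 that the exons of Celf1-202 lack (GRCm38). The next 15 coding bases of Celf1-201 follow in lower case. Whether all of these 15 are coding in Celf1-202 was not examined.
Celf1-201 coding start: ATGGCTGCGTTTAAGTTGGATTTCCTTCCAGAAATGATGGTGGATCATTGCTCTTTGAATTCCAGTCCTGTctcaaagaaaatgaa

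Abca7 (chr10:79996494-80015572, plus strand) had the lowest level of the 8 genes. It stood at 15.4 CPM in APP-3, 14.7 CPM in APP-4, 15.1 CPM in WT-1 and 13.6 CPM in WT-2. The groups overlapped, and the log2 fold change was 0.07 ± 0.11 (SE) with an edgeR FDR of 0.897. Its 95% interval ran from −0.17 to 0.30. Abca7-201 took 96.9 to 98.6% of its counts.

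Mef2c (chr13:83504240-83667078, plus strand) had the highest level and the lowest log2 fold change of the 8 genes. It stood at 680.2 CPM in APP-3, 545.0 CPM in APP-4, 691.4 CPM in WT-1 and 689.5 CPM in WT-2. APP-3 lay close to WT, and APP-4 alone was low. The log2 fold change was −0.17 ± 0.09 (SE) with an edgeR FDR of 0.554. Without APP-3 it was −0.35, short of the fold cut-off and resting on APP-4 as the only APP library. Without APP-4 it was −0.02. In APP-4, the striatal marker sum was 250 CPM against 104 CPM in APP-3, while the excitatory neuron sums of the APP libraries were 1273 and 1266 CPM. The part of these in the Mef2c value was not tested.

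The symbol-bearing Mef2c transcript, Mef2c-201, took 92.3 to 93.0% of the counts of the 3 Mef2c transcripts found by identifier. Mef2c-202 took 5.18 to 5.67% and Mef2c-203 took 1.83 to 2.06%. All 3 were lower in APP-4 than in the other libraries. The 2 minor forms each carry a coding exon that Mef2c-201 lacks, at chr13:83625265-83625324 and chr13:83654598-83654621 on the plus strand. These are shown in capitals between 15 coding bases in lower case, as the coding stretches that each form adds to Mef2c-201. Mef2c-203 also differs from it outside the coding sequence, with 177 bases of its own among the counted transcripts, of which 24 are coding.
Mef2c-202 exon: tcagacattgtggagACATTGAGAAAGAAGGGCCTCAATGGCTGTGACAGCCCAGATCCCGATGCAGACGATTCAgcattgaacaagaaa
Mef2c-203 exon: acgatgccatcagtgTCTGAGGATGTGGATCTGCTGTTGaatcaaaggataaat

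At the level of single transcripts, 0 of 23 were called by edgeR's quasi-likelihood test, against 0.807% of all 37539 transcripts, and 0 of 23 had an unadjusted p under 0.05, against 9.18%. Groups did not overlap in 6 transcripts that were higher and 4 that were lower in APP, against 38.5% of all transcripts. A test of transcript usage, which compares each transcript with the others of its gene, called 0 of 5 genes with at least 2 transcripts bearing a symbol (edgeR diffSpliceDGE, gene-level F test, FDR of at least 0.993). Over the whole table this test called 0.184% of genes, and 5.36% had an unadjusted p under 0.05, against 0 of 5 here. Grouped by identifier, Mef2c could be tested as well, with an FDR of 0.997, where 0.173% of genes were called. How reads shared between isoforms were placed is not given in the sources used here, and this bears on the shares. Mef2c-202 holds every base of Mef2c-201 and 60 more, and Celf1-201, Abca7-201 and Ptk2b-202 have no base of their own among the counted transcripts of their gene.

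**Figure D3:**
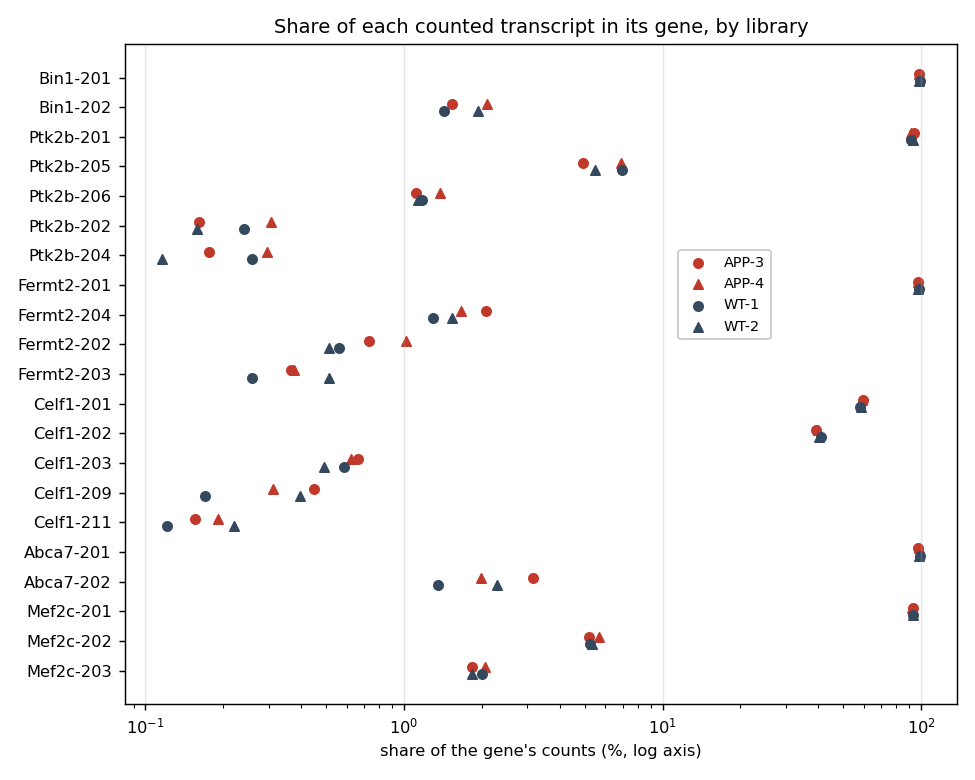
Share of each counted transcript in the counts of its gene, in percent on a log axis, with 1 point per library and APP in red and WT in dark blue, for the genes with more than 1 transcript. The points of the 4 libraries lie together for the main transcripts and spread out for those under 5%, and Celf1 is the gene whose counts are divided most evenly, at 58.2 to 59.5% and 39.3 to 40.9%.

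Compared per kilobase of transcript, the order of the levels was the same in all 4 libraries. In WT, Mef2c stood at 111 ± 0.21 CPM per kilobase (SD, n = 2), Ptk2b at 68.1 ± 0.28, Picalm at 45.0 ± 0.33, Bin1 at 39.7 ± 2.94, Celf1 at 33.8 ± 0.04, Fermt2 at 17.8 ± 0.79, Cd2ap at 5.65 ± 0.06 and Abca7 at 2.17 ± 0.16. In APP the values were 98.5 ± 15.4 for Mef2c, 64.3 ± 5.37 for Ptk2b, 49.2 ± 2.36 for Picalm, 40.5 ± 2.67 for Bin1, 34.2 ± 0.92 for Celf1, 19.8 ± 0.86 for Fermt2, 6.31 ± 0.59 for Cd2ap and 2.28 ± 0.08 for Abca7. The lowest library of each gene lay above the highest library of the gene next below it. The nearest neighbours were Picalm and Bin1, at 44.8 CPM per kilobase in the lowest Picalm library and 42.4 in the highest Bin1 library. Mef2c stood at 121 CPM per kilobase in WT when its 2 transcripts without a symbol were added.

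**Figure D4:**
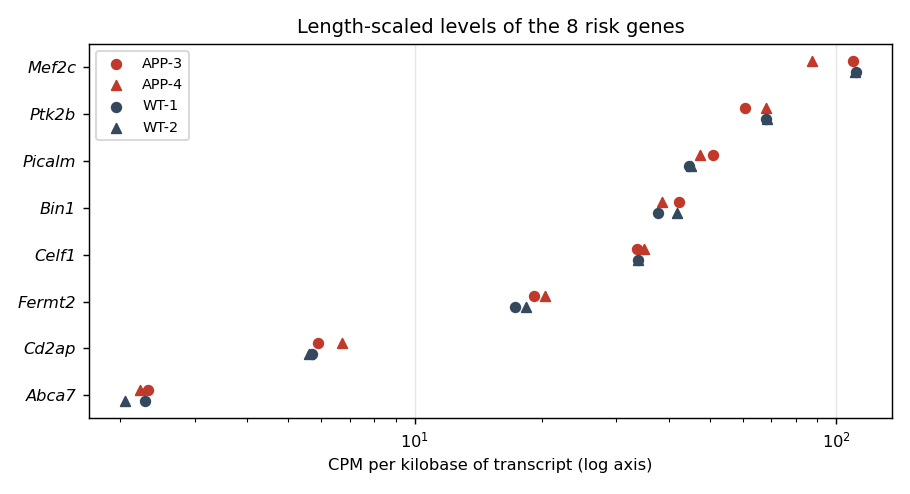
Level of each gene in CPM per kilobase of transcript, on a log axis, with 1 point per library. The genes run from Mef2c at 111 down to Abca7 at 2.17 in WT, and no gene's points reach into those of its neighbour.

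The nearest paralogues of the 8 genes were measured for 25 of 28 names, and 0 of 25 were called by edgeR's quasi-likelihood test in either direction, with 4 of 25 at an unadjusted p under 0.05, where 11.1% of all genes were. Their median log2 fold change was 0.01. Amph, the amphiphysin closest to Bin1, stood at 138 and 129 CPM in APP and 139 and 149 CPM in WT, and Bin3 at 4.18 to 5.70 CPM. Snap91, the neuronal counterpart of Picalm, had a log2 fold change of −0.12 ± 0.07 (SE), with 252.7 and 242.4 CPM in APP and 275.1 and 264.5 CPM in WT. Sh3kbp1, the adaptor related to Cd2ap, had 0.15 ± 0.07 (SE), and Ptk2, which encodes focal adhesion kinase, −0.15 ± 0.07 (SE), with edgeR FDR values of 0.498 and 0.469. Groups did not overlap in 7 paralogues that were higher in APP (Sh3kbp1 among them) and 6 that were lower (Snap91 and Ptk2 among them), of 25, where the share over all genes was 41.1%. Fermt3, the kindlin of blood cells and microglia, stood at 2.83 and 3.07 CPM in APP and at 1.18 and 2.03 CPM in WT, a log2 fold change of 0.89 ± 0.26 (SE) with an edgeR FDR of 0.189, while Fermt1 had 0.23 ± 0.30 (SE). Celf2 to Celf6, the other RNA-binding proteins of the family, lay between −0.03 and 0.05, and Mef2d had −0.01. A further 2 paralogues were found only by identifier. Bin2, a relative of Bin1 in myeloid cells, stood at 2.31 and 1.94 CPM in APP and 1.55 and 1.33 CPM in WT, with an edgeR FDR of 0.406 for a log2 fold change of 0.56 ± 0.24 (SE), and Mef2a had a log2 fold change of 0.00 ± 0.07 (SE).

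Among the lipid transporters related to Abca7, Abca1, which loads apolipoproteins with cholesterol, stood at 85.8 and 112 CPM in APP and at 69.6 and 65.9 CPM in WT. Abca9 stood at 24.2 and 25.5 CPM in APP and at 17.99 and 15.8 CPM in WT. Both passed the FDR cut-off in edgeR (0.0434 and 0.0212) with log2 fold changes of 0.55 ± 0.11 and 0.55 ± 0.10 (SE), short of a 1.5-fold change. Without the fold cut-off, 1.32% of all genes were called. Whether Abca1 or Abca9 differed from Abca7 in their change was not tested. Abca5 had −0.18 ± 0.07 (SE), Abca4 0.39 ± 0.19, Abca13 1.34 ± 0.61 and Abca12 −0.41 ± 0.54, with edgeR FDR values of 0.298, 0.489, 0.462 and 0.866. Abca2, Abca3, Abca6, Abca8a, Abca8b and Abca17 lay between −0.10 and 0.04. Abca12 and Abca13 stood under 1 CPM in every library.

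Of the clathrin-mediated endocytosis list 35 of 37 genes were measured, of the endosomal sorting list 23 of 29 and of the integrin adhesion list 32 of 37, and 0 of these were called in either direction. Their median log2 fold changes were −0.05, 0.02 and 0.06, beside 0.00 for all genes, and 4 of 35, 3 of 23 and 8 of 32 had an unadjusted p under 0.05, where the share over all genes was 11.1%. Groups did not overlap in 7 higher and 14 lower genes of 35, in 4 and 6 of 23 and in 14 and 7 of 32. The share over all genes was 41.1%. In the adhesion list, Itgb5, an integrin beta chain, and Tln1, which encodes talin, passed the FDR cut-off alone, with log2 fold changes of 0.51 and 0.49 and edgeR FDR values of 0.0332 and 0.0170. With sums by GENCODE gene, 1 adhesion gene and 1 paralogue passed the FDR cut-off alone in place of 2 each, where 1.14% of all genes did.

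**Figure D5:**
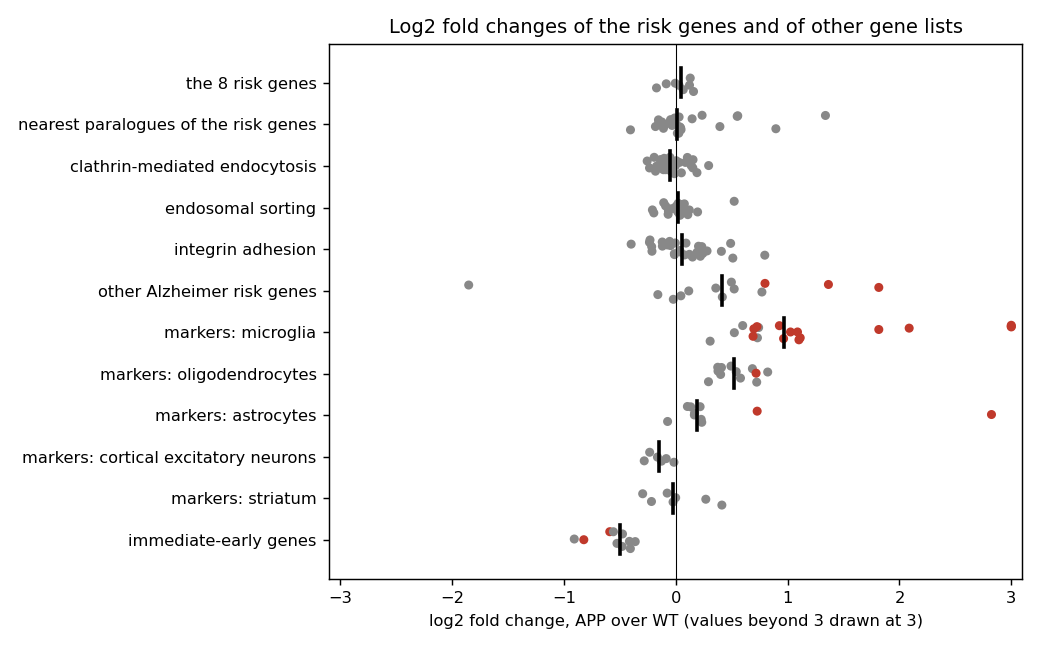
Median log2 fold change, APP against WT, of each gene list (black bar), with 1 point per gene, called genes in red and values beyond 3 drawn at 3. The risk genes at 0.05 and the endocytosis, sorting and adhesion lists at −0.05 to 0.06 lie near the median of all genes, and the microglial list at 0.96 lies to the right.

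Other Alzheimer risk genes outside this group gave 3 calls of 13 measured genes, of 18 listed, all higher in APP. Over all genes 0.908% were called higher. The median log2 fold change of the list was 0.42. The count of calls was 2 with DESeq2 or with sums by GENCODE gene, and 4 with edgeR's exact or likelihood ratio test. Over the whole table, DESeq2 called 213 genes, the exact test 397 and the likelihood ratio test 443. With sums by GENCODE gene 0.881% of all genes were called. Trem2, a lipid receptor of microglia that is also in the microglial marker list, rose by 1.82 ± 0.12 (SE) on the log2 scale, from 5.18 and 4.99 CPM in WT to 18.2 and 17.7 CPM in APP. Abi3 rose by 1.36 ± 0.25 and Inpp5d, a phosphatase of myeloid cells, by 0.80 ± 0.11, with edgeR FDR values of 4.37e-05, 0.0317 and 0.00702 for the 3 genes. Clu passed the FDR cut-off alone, with 0.42 ± 0.07 (SE) and an edgeR FDR of 0.0146. These lists do not share genes with the 8 described here, and the difference between the groups of risk genes was not tested.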

How the data were processed

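RNA was sequenced from the cortex of 2 APP and 2 WT mice. Per the labels and the study's methods, ribosomal RNA was removed, libraries kept the strand and were read from both ends, and the authors used FANSe2 to map reads to Ensembl's mouse RNA set. The deposited values used here are raw read counts per transcript, 37539 in all, each with at least 10 counts over the 4 libraries. The submitters' processing notes name CASAVA 1.8, edgeR and a human genome build, which was not used. The Ensembl release and the placing of reads shared by isoforms are not given in the sources used here. The authors' 4 columns of log2 CPM per library and their columns of fold changes, p-values and FDR were not used.

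Counts were summed per gene symbol with case ignored, since exact case matches 2 of the 8 genes. The 8274 transcripts without a symbol (22.0%) were kept as features of their own. Transcript names, lengths, exons and sequences were taken from GENCODE M21 (GRCm38), which matched 98.2% of transcripts. Counts were normalized by TMM and tested over all 22919 features with edgeR 4.0.16 (glmQLFit and glmQLFTest, R 4.3.3), with Benjamini-Hochberg adjustment. A call is an FDR under 0.05 with a fold change of at least 1.5, as in the study. CPM used TMM library sizes. Transcript usage was tested with diffSpliceDGE on the whole transcript table. DESeq2 1.42.0 and limma 3.58.1 served as alternatives. The steps were tested on simulated data.

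All 8 genes are named, with transcripts of at least 5% of their gene, every counted paralogue, up to 5 called genes of each other list and at most 2 of a marker list. Bin1-202, Ptk2b-202, Fermt2-204, Mef2c-203, Abca1, Abca9, Itgb5, Tln1 and Clu fall partly outside this and were named after their values were seen. The genes and lists were chosen with earlier results of these data known. The labels say only that these are separate samples, and the paper gives 2 mice per genotype. The p-values rest on the spread between these libraries and on a spread that edgeR shares across genes. The APP columns carry numbers that the labels do not, so they were assigned to the group and not to a given mouse.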

Additional observations from a re-analysis of the deposited data

How the results depend on the processing

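Over 10 alternatives that kept all libraries (edgeR's exact and likelihood ratio tests, DESeq2, other scalings, filters on low counts, FDR alone, sums by GENCODE gene), 0 of the 8 genes was called. Among these, taking away the filter could change nothing, since it had left out 0 features, and FDR alone used the main fit. Across these, the log2 fold change of Mef2c ran from −0.18 to −0.17, with FDR values from 0.513 to 0.818, and that of Picalm from 0.12 to 0.13, with FDR values from 0.500 to 0.980. Over the whole table, 225 genes were called by the quasi-likelihood test, 397 by the exact test and 443 by the likelihood ratio test, and 303 transcripts against 483 by the likelihood ratio test. With FDR alone, 4 genes of the paralogue, endocytosis, sorting and adhesion lists passed in place of 0. Genes with a change in transcript usage over the whole table numbered 11, and 4 with transcripts of at least 5% of their gene and 5 with limma voom. The count of genes whose groups did not overlap was 5, and 4 with library totals alone or with TMM over protein-coding features, alternatives added after the data were seen. With sums by GENCODE gene, 13 microglial and 2 hypothalamic markers were called in place of 14 and 4. These counts were 11 and 1 with at least 10 counts in every library, and 16 and 5 with edgeR's exact test. Several hypothalamic markers held 0 to 2 counts in the WT libraries, below that filter. Leaving out each library in turn gave log2 fold changes of −0.05 to 0.11 for Bin1, 0.07 to 0.18 for Picalm, 0.06 to 0.25 for Cd2ap, −0.17 to −0.01 for Ptk2b, 0.08 to 0.16 for Fermt2, −0.04 to 0.02 for Celf1, −0.01 to 0.14 for Abca7 and −0.35 to −0.02 for Mef2c. Each such fit left 1 library in a group, and none of these values reached the fold cut-off. The cause of these shifts was not tested. The sources used here give no pairing of APP with WT mice, and no paired analysis was made.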
